A study of Homo sapiens with 6 samples.

Results

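The cytochrome P450 genes analysed here are the 47 genes on the array whose symbol is CYP followed by a number, letters and a number, without CYP51A1 and pseudogenes. They are 47 of 19775 genes that had a probe set with 1 gene symbol. RefSeq lists 54 protein-coding genes of that name pattern. CYP21A2, CYP3A7 and CYP4A22 lie only on probe sets shared with other genes and were given no value, and the others beyond the 47 were not analysed here. Each gene was read from 1 probe set, the one with the highest mean of log2(signal + 16) over all arrays, and counts of genes refer to that probe set. By the mean of the untransformed signals, a choice tried after seeing the data, another probe set would be used for CYP2D6 and CYP3A5.

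RNA was taken from Hep3B, a human hepatocellular carcinoma cell line, grown with the selection drug G418 until nearly confluent. Clone D20 carried a plasmid with an siRNA against SDHB, a subunit of succinate dehydrogenase (complex II of the respiratory chain), and clone pU6-2 carried the plasmid pU6 as control. Each clone gave 3 Affymetrix HG-U133 Plus 2.0 arrays, lettered A, B and C. Each group is a single clone, so silencing and clone cannot be told apart, and whether the 3 arrays stand for separate cultures is not stated. The p-values therefore reflect array-to-array spread within each clone alone, which may be technical. SDHB itself was not analysed here.

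Cytochrome P450 enzymes are heme proteins that insert 1 oxygen atom into a substrate. Families 1 to 3 are known in liver mainly for the oxidation of drugs and other foreign compounds, family 4 for the hydroxylation of fatty acids and eicosanoids, and the higher families for bile acid, steroid hormone, vitamin D and retinoic acid metabolism. Most lie in the endoplasmic reticulum and take electrons from the reductase POR, while the mitochondrial members take them from ferredoxin. The genes were sorted by main substrate into 16 drug, 11 sterol, 13 fatty acid and 6 vitamin genes and the orphan CYP20A1. CYP2J2 and CYP2U1 were placed with the fatty acid genes and CYP2R1 with the vitamin genes.

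The hepatocyte identity of the cells was checked through 12 marker genes, of which all 12 were above background in both clones. Of these 9 were lower and 2 higher in D20, beside 20.8% and 23.7% of all genes tested. Their summed signal was 125133 to 136928 on the D20 arrays, against 285893 to 293835 on the pU6-2 arrays. ALB, the gene of serum albumin, was the 1 marker that did not differ by the test (log2 fold change 0.0049, limma adjusted p = 0.972). AFP fell most, with signals of 345 to 451 in D20, against 19921 to 21208 in pU6-2 (log2 fold change -5.62). The other lower markers ran from -0.54 (SERPINA1) to -3.33 (APOA1). FGA (1.09) and FGB (1.705) were higher. Among 8 fibroblast markers 2 were above background in D20 and 3 in pU6-2, with summed signals of 4225 to 4989 against 1197 to 1397. Of the 7 tested, 1 was higher and 2 lower in D20, beside 23.7% and 20.8% of all genes tested. The higher one was COL1A1, a collagen gene with signals of 3440 to 4230 in D20, against 0.7 to 1.7 in pU6-2. Of 5 blood markers 0 were above background in D20 and 2 in pU6-2, of 6 endothelial markers 1 and 0, and of 6 biliary markers 5 and 4. The summed signals were 166 to 251 against 3923 to 5254 for the blood markers, 284 to 407 against 145 to 315 for the endothelial markers and 21529 to 24210 against 19568 to 20391 for the biliary markers. The difference in the blood sum lies in LYZ, the lysozyme gene (5.7 to 23.7 in D20, against 3628 to 5003 in pU6-2), and none of the other 4 blood markers was called. No marker was listed at 0, while PTPRC, CDH5 and VWF were above background on no array. PECAM1, the endothelial marker above background in D20, was called higher there (log2 fold change 1.63, limma adjusted p = 0.00421). Among the biliary markers AQP1 (3.81), EPCAM (0.41) and KRT19 (0.39) were higher in D20 and SOX9 (-0.65) lower. The ratio of the 3′ to the 5′ control probe set was 1.40 to 1.68 against 1.42 to 1.90 for ACTB and 1.11 to 1.25 against 1.08 to 1.15 for GAPDH. The part of these differences in the results below was not tested. In bulk RNA, fewer cells that express a gene and less RNA per cell cannot be told apart.

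Most P450 genes were dim in Hep3B. The deposited values are MAS5 signals without detection calls, so a gene was counted as above background in a clone where its signal exceeded the 95th percentile of 107 olfactory receptor probe sets on all 3 arrays of that clone. These receptor genes serve as a stand-in for genes that the cells do not express. That limit was a signal of 84.0, 122 and 91.8 on D20 arrays A, B and C, against 85.4, 89.1 and 84.8 on pU6-2 arrays A, B and C. By this measure 13 of the 47 genes were above background in D20 and 13 in pU6-2, 9 of them in both, and 17 (36.2%) in at least 1 clone. Over all genes 58.7% were above background in at least 1 clone. Of the 47 genes 18 were below the limit on all 6 arrays. Counting any probe set of a gene, 13 were above background in D20, 14 in pU6-2 and 18 in at least 1 clone, and 17 were below the limit on all arrays. The additions are CYP2D6, with a second probe set above the limit on all pU6-2 arrays, and CYP4A11, with one above it on D20 array C.

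**Figure D1:**
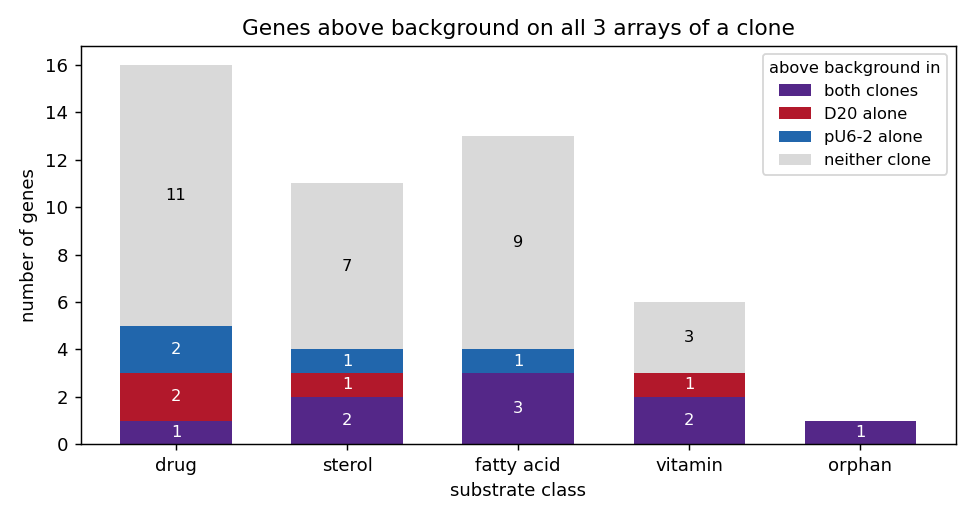
Number of P450 genes (vertical axis) in each substrate class (horizontal axis) that were above the olfactory receptor limit on all 3 arrays of both clones, of D20 alone, of pU6-2 alone or of neither. With 1 probe set per gene, 11 of 16 drug genes were above background in neither clone, and 1 was in both; CYP2D6, among the 11, was above it in pU6-2 by its second probe set.

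Every class held genes above background. Of 16 drug genes 5 were above background in at least 1 clone, of 11 sterol genes 4, of 13 fatty acid genes 4 and of 6 vitamin genes 3, and the difference between classes was not tested. Above background in both clones were CYP1A1 among drug genes, CYP27A1 and CYP39A1 among sterol genes, CYP2J2, CYP2U1 and CYP4V2 among fatty acid genes, CYP2R1 and CYP26B1 among vitamin genes, and CYP20A1. CYP1B1, CYP2A6, CYP11A1 and CYP27C1 were above it in D20 alone, and CYP1A2, CYP3A4, CYP4F12 and CYP7B1 in pU6-2 alone, as was the second probe set of CYP2D6. Some of these were split by a single array. CYP3A4 and CYP7B1 missed the limit in D20 only on array B (signals of 91.5 and 49.9), whose limit of 122 was the highest. CYP1B1 was above the limit on 2 of the 3 pU6-2 arrays.

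Many P450 genes known for adult liver were among the dim ones. CYP2E1, which oxidises ethanol, CYP2C8, CYP2B6, CYP3A5, CYP4A11 and CYP4F2 were above background on all arrays of neither clone, and neither was CYP7A1, the rate-limiting enzyme of classical bile acid synthesis. CYP7A1 had signals of 12.5, 5.5 and 31.3 in D20, against 21.9, 30.3 and 39.9 in pU6-2, which overlap. CYP8B1, the sterol 12-hydroxylase, was above the limit on 1 array of each clone. CYP26A1, a retinoic acid hydroxylase, had signals of 118, 24.7 and 122 in D20, against 16.9, 5.3 and 8.4 in pU6-2, so that 2 of 3 D20 arrays lay above the limit.

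Genes were tested by limma on log2(signal + 16) after the 40% of probe sets with the lowest mean had been left out, which leaves 13781 genes. Differences are log2 fold changes, D20 minus pU6-2, with the standard error (SE), and adjusted p is Benjamini-Hochberg over all probe sets tested, with a threshold of 0.05. Of the 47 P450 genes 25 were tested, 10 of the drug, 5 of the sterol, 5 of the fatty acid and 4 of the vitamin class, and CYP20A1. The tested genes nearest to the filter were CYP2A7 and CYP4F3, with back-transformed mean signals of 45.1 and 46.5, and the untested genes nearest to it were CYP2B6 and CYP3A5 with 39.6 and 37.2. The 22 untested genes had single-array signals between 1.1 and 144, and their log2 differences ran from -0.60 (CYP2C8) to 1.82 (CYP26A1).

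By that test 6 P450 genes rose, 7 fell and 12 did not pass, so 52.0% of those tested were called, against 44.5% of all genes tested. The 6 that rose stand beside 23.7% of all genes tested, and the 7 that fell beside 20.8%. These shares lie near the background. Without pU6-2 array A or C, and without the variance trend, 4 fell. Of all genes tested 39.2%, 37.2% and 34.8% were called in these settings, in that order, against 44.5%. A change of at least 2-fold was called for 10 of the 25, against 17.3% of all genes, and dim genes with wide intervals are among them. The arrays of the clones did not overlap for 15 (60.0%), against 54.1% of all genes. A gene bright in 1 clone can pass the filter through that clone alone, as CYP2A7, CYP2W1, CYP11A1, CYP27C1 and CYP4F3 may have, so these counts are a description. The share of called genes that was higher in D20 was 53.2%, but 42.2% after centring the arrays on their medians and 72.7% after scaling them on poly-A spike-in controls. The median of all genes was at 0.04, -0.08 and 0.25 under these settings, and the P450 genes were then split into 5 higher and 8 lower with centring and 7 higher and 5 lower with spike-in scaling.

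**Figure D2:**
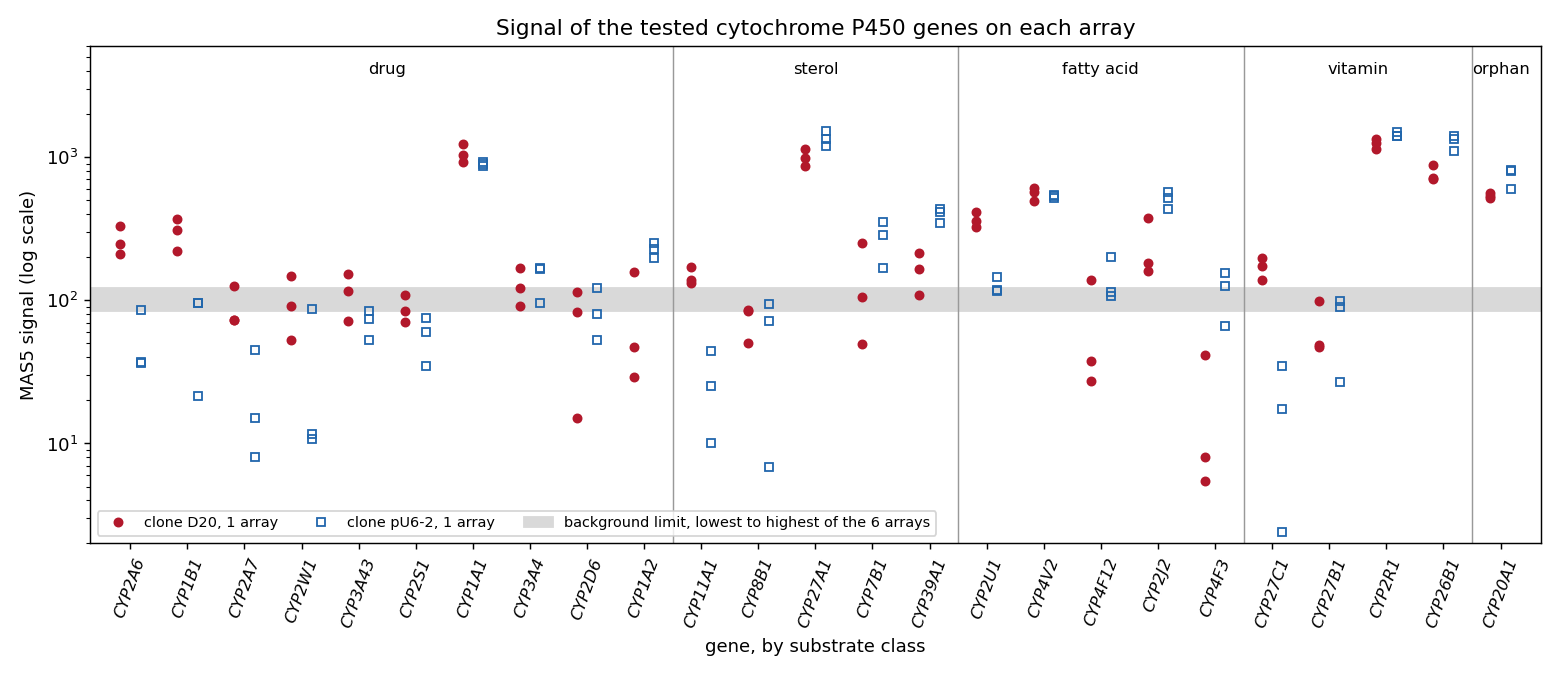
MAS5 signal (vertical axis, log scale) of the 25 tested P450 genes (horizontal axis, by substrate class) on each D20 array (filled circles) and each pU6-2 array (open squares); the grey band spans the background limits of the 6 arrays. CYP27C1, CYP11A1 and CYP2A6 lie above the band in D20 and within or below it in pU6-2, and CYP4F3 lies below it on every D20 array.

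In the CYP1 family, whose genes are induced through the aryl hydrocarbon receptor AHR, the 3 genes did not move together. CYP1B1, which oxidises polycyclic hydrocarbons and estradiol, had signals of 312, 222 and 368 on the D20 arrays, against 95.9, 21.4 and 96.1 on the pU6-2 arrays. Each D20 array was above each pU6-2 array, and 2 of the 3 pU6-2 arrays were above background. The log2 fold change was 2.00 ± 0.42 (SE; limma adjusted p = 0.00211), and the other 2 tested probe sets of CYP1B1, below background on every pU6-2 array, were at least 1.98-fold and 1.53-fold higher.

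CYP1A1, the classical inducible hydrocarbon hydroxylase, had signals of 934.0, 1030.3 and 1231 in D20, against 875.6, 933.6 and 891.3 in pU6-2. The clones met without overlap at D20 array A and pU6-2 array B, and the difference did not pass the test (log2 fold change 0.23, 95% interval -0.05 to 0.51, limma adjusted p = 0.193). With spike-in scaling it passed (0.45, limma adjusted p = 0.0266). CYP1A2, the caffeine-metabolising enzyme of adult liver, had signals of 47.5, 158 and 29.3 in D20, against 197, 229 and 249.9 in pU6-2. It fell by 1.60 on the log2 scale (SE 0.44, limma adjusted p = 0.0122), and of the D20 arrays only B was above background. Its probe set has the suffix _x_at, which, like _s_at, marks possible matches to other transcripts, and its other probe set was below background on all 6 arrays. Without pU6-2 array C, CYP1A2 did not pass (log2 fold change -1.52, limma adjusted p = 0.0503), nor without the variance trend (limma adjusted p = 0.0575).

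CYP1A1 and CYP1A2 are neighbours on chromosome 15, with no other coding gene between them, and lie on opposite strands. The 250 bases before each start are shown because both genes are known AHR targets, yet CYP1A2 fell here and CYP1A1 did not pass; capitals mark the dioxin response element core GCGTG, searched on both strands.
CYP1A1, GRCh38.p14 chr15:74725529-74725778, minus strand: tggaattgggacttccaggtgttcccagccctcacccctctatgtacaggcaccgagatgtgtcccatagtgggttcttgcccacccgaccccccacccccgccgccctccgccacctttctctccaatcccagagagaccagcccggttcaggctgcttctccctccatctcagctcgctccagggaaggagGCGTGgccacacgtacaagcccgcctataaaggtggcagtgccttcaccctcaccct
CYP1A2, GRCh38.p14 chr15:74748595-74748844, plus strand: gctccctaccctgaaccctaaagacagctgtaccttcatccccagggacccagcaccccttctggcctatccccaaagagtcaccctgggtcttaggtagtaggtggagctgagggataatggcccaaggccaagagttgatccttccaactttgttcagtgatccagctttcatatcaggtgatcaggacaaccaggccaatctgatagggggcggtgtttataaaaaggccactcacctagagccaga
In the CYP1A1 window there is 1 core, which begins at base -57 from the start, and the CYP1A2 window holds 0. The core occurs in 31.9% of 27305 RefSeq promoter windows of the same length and in 7 of the 34 P450 windows that were matched (20.6%). A match is a description of these letters and not a binding site. Bases farther from the starts were not searched, so these windows cannot show whether either gene lacks a dioxin response element. Whether the core bears on the difference between the 2 genes was not tested.

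The CYP2 genes of chromosome 19 include the nicotine- and coumarin-oxidising CYP2A6 and its near copy CYP2A7, whose product is not known to be a working enzyme. CYP2A6 had signals of 249, 332 and 212 in D20, against 85.1, 36.8 and 36.6 in pU6-2, so that, for this probe set, all D20 arrays were above background and no pU6-2 array was. By it CYP2A6 was at least 3.01-fold higher in D20, where the pU6-2 mean is taken at the background limit on each array, and the fitted log2 fold change was 2.08 ± 0.36 (SE; limma adjusted p = 0.000499). Of its 4 tested probe sets 3 rose. The probe set that did not pass had a signal of 155 on pU6-2 array A, above background, and became the brightest one without D20 array A, B or C or without pU6-2 array C, and CYP2A6 was then at 1.17, 1.28, 1.25 and 0.67 in that order and did not pass (limma adjusted p = 0.131, 0.0871, 0.104 and 0.176). It was also used, at 1.23 (limma adjusted p = 0.0506), with _x_at and _s_at probe sets taken last.

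CYP2A7 had signals of 127, 73.2 and 73.4 in D20, against 45.2, 8.1 and 15.1 in pU6-2, and only D20 array A was above background. It rose by 1.54 ± 0.54 on the log2 scale (SE; limma adjusted p = 0.0394), a call that is weakly held. It did not pass with quantile normalization, median centring, a pseudocount of 1 or no filter, nor without pU6-2 array B (1.26) or C (1.44), and fell below the filter without any 1 D20 array. Both genes were read from _x_at probe sets, so their signals cannot be fully separated. The bases before their starts are shown because the pair moved together and is nearly identical there; capitals mark the 10 of 250 positions at which they differ.
CYP2A6, GRCh38.p14 chr19:40850448-40850697, minus strand: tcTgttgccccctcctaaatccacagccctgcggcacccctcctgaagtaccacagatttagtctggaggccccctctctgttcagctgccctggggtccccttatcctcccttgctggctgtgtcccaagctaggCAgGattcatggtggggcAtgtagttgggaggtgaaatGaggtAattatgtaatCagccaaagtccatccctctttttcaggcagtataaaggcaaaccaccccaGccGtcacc
CYP2A7, GRCh38.p14 chr19:40882232-40882481, minus strand: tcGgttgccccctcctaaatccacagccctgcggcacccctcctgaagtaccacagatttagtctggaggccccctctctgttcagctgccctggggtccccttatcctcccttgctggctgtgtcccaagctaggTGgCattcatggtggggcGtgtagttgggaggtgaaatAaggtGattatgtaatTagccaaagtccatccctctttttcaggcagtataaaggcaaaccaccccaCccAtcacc
The windows are 96.0% identical without gaps, and 1 of the differing bases completes a GCGTG core at base -98 of CYP2A7, where CYP2A6 has 0 cores. CYP2B6, the next member beyond CYP2A7, was untested with a log2 difference of 1.68, from signals of 118, 88.2 and 54.1 in D20, against 42.2, 11.8 and 2.6 in pU6-2. The other members of this group of neighbours were at -0.42 (CYP2A13, untested), 1.23 (CYP2F1, untested) and 0.54 (CYP2S1, limma adjusted p = 0.351), so they did not all lie on the same side of 0.

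The other drug genes did not pass the test. CYP3A4, the main drug-oxidising enzyme of adult liver, had signals of 121, 91.5 and 168 in D20, against 169.5, 95.4 and 164 in pU6-2, which overlap (log2 fold change -0.15, 95% interval -0.87 to 0.57, limma adjusted p = 0.765). CYP3A43 was at 0.55 (limma adjusted p = 0.299), and CYP2D6, which oxidises many basic drugs, at -0.41 (limma adjusted p = 0.611) by the probe set used. A second probe set of CYP2D6 had signals of 12.5, 18.3 and 86.0 in D20, against 141, 101 and 142 in pU6-2, and was at least 1.29-fold lower in D20 (limma adjusted p = 0.0265). This is the probe set with the higher mean of untransformed signals, and with it 8 P450 genes would be counted as lower. CYP2W1, described in fetal and tumour tissue, was at 1.33 (limma adjusted p = 0.109), and without pU6-2 array A at 1.97 (limma adjusted p = 0.0246).

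Among sterol genes CYP39A1 and CYP27A1, above background in both clones, were lower in D20. CYP11A1, above background in D20 alone, was higher. CYP39A1, which hydroxylates 24-hydroxycholesterol, had signals of 213, 167 and 108 in D20, against 412, 433 and 345 in pU6-2, without overlap. It fell by 1.25 on the log2 scale (SE 0.25, limma adjusted p = 0.00167), and its other 2 tested probe sets, below background on every D20 array, were at least 1.63-fold and 2.80-fold lower. CYP27A1, the mitochondrial sterol 27-hydroxylase, had signals of 983, 1134 and 876 in D20, against 1347, 1522 and 1194 in pU6-2.

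The clones were close for CYP27A1, whose fall of 0.44 (SE 0.13, limma adjusted p = 0.021) was not called without D20 array A (-0.43), D20 array C (-0.35), pU6-2 array A (-0.44) or pU6-2 array B (-0.35), without the variance trend or after spike-in scaling (-0.22). CYP7B1, the oxysterol 7-alpha-hydroxylase, had signals of 250, 49.9 and 105 in D20, against 355, 168 and 287 in pU6-2, which overlap. Its log2 fold change of -1.10 did not pass (95% interval -2.05 to -0.14, limma adjusted p = 0.0706). It passed with quantile normalization (-1.25) and median centring (-1.22), and without D20 array A (-1.62, limma adjusted p = 0.00813) or pU6-2 array B (-1.38, limma adjusted p = 0.0465).

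CYP11A1, the mitochondrial enzyme that cleaves the side chain of cholesterol to make pregnenolone, had signals of 139, 171 and 132 in D20, against 25.2, 10.1 and 44.6 in pU6-2. All D20 arrays were above background and no pU6-2 array was, which gives at least 1.69-fold higher in D20. The fitted log2 fold change was 2.01 ± 0.45 (SE; limma adjusted p = 0.00327), and 2.64 and 1.23 with pseudocounts of 1 and 64. CYP17A1, CYP19A1, CYP11B1, CYP11B2 and CYP46A1, which act in steroid hormone synthesis or, for CYP46A1, in brain cholesterol turnover, were untested.

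Fatty acid genes moved in both directions. CYP2U1, which hydroxylates long-chain fatty acids, had signals of 417, 325 and 358 in D20, against 145, 117 and 119 in pU6-2, all above background. It rose by 1.42 ± 0.23 on the log2 scale (SE; limma adjusted p = 0.000281), and its second tested probe set, below background on every pU6-2 array, was at least 2.33-fold higher. CYP2J2, an epoxygenase of arachidonic acid, had signals of 183, 161 and 378 in D20, against 517, 438 and 573 in pU6-2.

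Each D20 array lay below each pU6-2 array for CYP2J2, with D20 array C nearest to them. It fell by 1.12 (SE 0.27, limma adjusted p = 0.00584). CYP4F3, a leukotriene B4 omega-hydroxylase, had signals of 8.0, 41.4 and 5.5 in D20, against 156, 125 and 66.5 in pU6-2. No D20 array and 2 pU6-2 arrays were above background, and the fitted log2 fold change was -2.03 ± 0.56 (SE; limma adjusted p = 0.0122), or -1.12 with a pseudocount of 64. It fell below the filter without any 1 pU6-2 array and with a pseudocount of 1.

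CYP4F8, which lies next to CYP4F3 on chromosome 19, was untested with a log2 difference of 1.01. CYP4F12, the neighbour on the other side, had signals of 37.4, 27.4 and 138 in D20, against 199.7, 114 and 108 in pU6-2. It did not pass (log2 fold change -1.09, 95% interval -2.15 to -0.03, limma adjusted p = 0.102), but did without D20 array C (-1.65, limma adjusted p = 0.0139). CYP4V2, a fatty acid hydroxylase mutated in a corneal and retinal dystrophy, had signals of 614, 576 and 491 in D20, against 544, 521 and 538 in pU6-2. Its clones overlapped, with a log2 fold change of 0.06 and a 95% interval of -0.26 to 0.38 (limma adjusted p = 0.786). The other 8 genes of the class were untested, with no array above the limit for the probe sets used.

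Of the 4 tested vitamin genes 1 rose, 1 fell and 2 did not pass, beside 23.7% of all genes tested that rose and 20.8% that fell. CYP27C1, a mitochondrial enzyme that desaturates retinol, had signals of 139.9, 173 and 199 in D20, against 34.8, 2.4 and 17.4 in pU6-2. It was at least 1.95-fold higher in D20, and its fitted log2 fold change was 2.55 ± 0.48 (SE; limma adjusted p = 0.00104), with 3.70 and 1.52 at pseudocounts of 1 and 64. CYP26B1, which clears retinoic acid, had signals of 884, 713 and 705 in D20, against 1109, 1416 and 1331 in pU6-2.

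All CYP26B1 values were above background and without overlap, and it fell by 0.73 (SE 0.14, limma adjusted p = 0.00103). CYP2R1, a vitamin D 25-hydroxylase, had signals of 1260.2, 1152 and 1342 in D20, against 1409, 1415 and 1507 in pU6-2 (log2 fold change -0.21, 95% interval -0.44 to 0.03, limma adjusted p = 0.163). CYP27B1, which makes active vitamin D, was at -0.05 (95% interval -1.14 to 1.04, limma adjusted p = 0.952), and CYP24A1, which degrades it, was untested. The orphan CYP20A1 had signals of 561, 533 and 517 in D20, against 819.6, 605 and 806 in pU6-2, and fell by 0.45 (SE 0.15, limma adjusted p = 0.0371). That call was lost without D20 array A (-0.48), B (-0.44) or C (-0.42), without pU6-2 array A (-0.37) or C (-0.38), with spike-in scaling (-0.23), with no filter and without the variance trend.

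**Figure D3:**
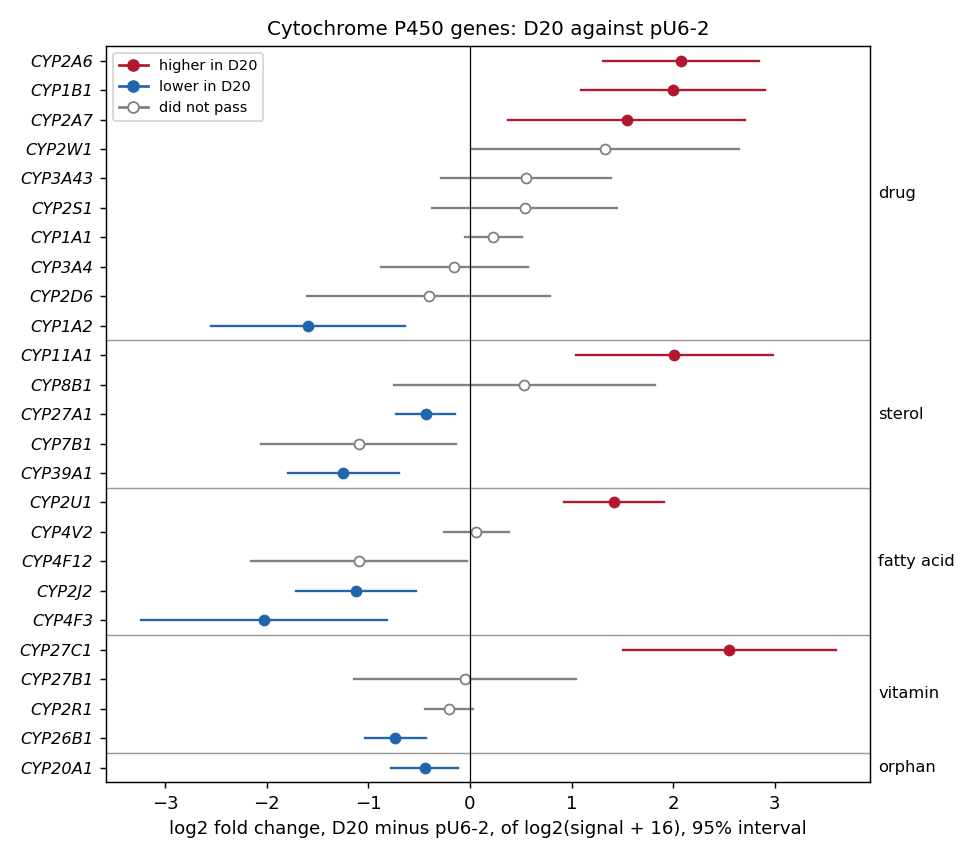
Log2 fold change, D20 minus pU6-2 (horizontal axis), of the 25 tested P450 genes (vertical axis, grouped by substrate class) with limma's 95% interval; filled points passed the test and open points did not. The drug class runs from 2.08 (CYP2A6) to -1.60 (CYP1A2), and every class but the orphan has points on both sides of 0.

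Drug, sterol and fatty acid genes each moved in both directions. Over all members, tested or not, the median log2 fold change was 0.43 for the 16 drug genes, -0.08 for the 11 sterol genes and 0.06 for the 13 fatty acid genes, against 0.04 for all genes. Over the tested members the medians were 0.55, -0.44 and -1.09, against 0.04 for all genes tested. Some of these members may have passed the filter through 1 clone alone, so these medians are a description. The fatty acid one is the value of CYP4F12, which did not pass. In the drug class 3 of 10 tested genes rose and 1 fell, in the sterol class 1 of 5 rose and 2 fell, and in the fatty acid class 1 of 5 rose and 2 fell, beside 23.7% of all genes that rose and 20.8% that fell. The differences between classes were not tested. Without D20 array B the drug median was 0.74, and without pU6-2 array A and C the sterol median was -0.24 and 0.02. With median centring and spike-in scaling the sterol median was -0.20 and 0.04, and the fatty acid median was -0.06 with centring.

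**Figure D4:**
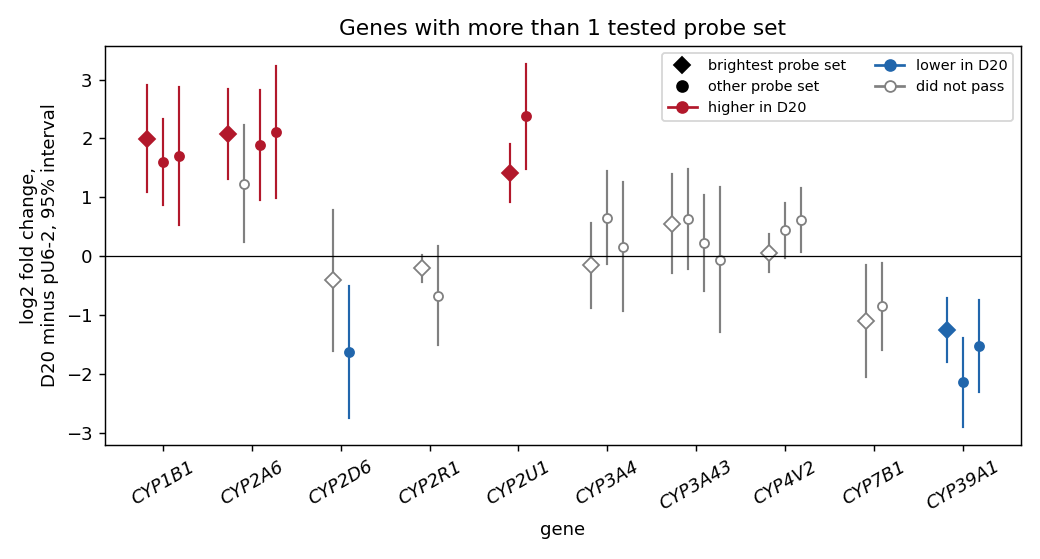
Log2 fold change, D20 minus pU6-2 (vertical axis), with limma's 95% interval for every tested probe set of the 10 P450 genes that have more than 1 (horizontal axis); diamonds mark the brightest probe set, the one used in the text. All tested probe sets of CYP1B1 and CYP2U1 rose and all of CYP39A1 fell, while for CYP2D6 the brightest did not pass and the other fell.

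The 4 tested mitochondrial P450 genes, of 7 measured, included CYP11A1 and CYP27C1 that rose and CYP27A1 that fell. Among 21 tested microsomal genes 4 rose and 6 fell. Of all genes tested 23.7% rose and 20.8% fell. CYP11A1 and CYP27C1 may have passed the filter through D20 alone, so these counts are a description. Their electron donors were tested in the same fit. POR, the reductase that serves the microsomal enzymes, had signals of 494, 469 and 614 in D20, against 2342, 2548 and 2429 in pU6-2. No array overlapped, and POR fell by 2.19 on the log2 scale (SE 0.13, limma adjusted p = 3.8e-08). FDX1, the ferredoxin that serves the mitochondrial enzymes, had signals of 1182, 1008 and 1154 in D20, against 1891, 2003 and 2050.0 in pU6-2, and fell by 0.82 (SE 0.11, limma adjusted p = 5.2e-05). It did not pass with _x_at and _s_at probe sets taken last (-0.33).

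Of 10 redox partner genes 4 fell, 1 rose and 5 did not pass, with a median log2 fold change of -0.13, while 44.5% of all genes were called, 20.8% as lower. CYB5R3, the cytochrome b5 reductase, fell by 0.70 (by 0.44 with _x_at and _s_at probe sets last) and its relative CYB5R1 by 0.43. CYB5R1 did not pass without the variance trend or after spike-in scaling (-0.21). FDX2, the ferredoxin of iron-sulfur cluster assembly, rose by 0.71, with signals of 1158, 1243 and 1199 in D20, against 732, 727 and 721 in pU6-2. CYB5A, cytochrome b5, was at 0.13 (limma adjusted p = 0.363). With spike-in scaling 3 of these genes rose and 3 fell. In that setting 45.2% of all genes tested were called, 72.7% of those as higher, and the median of all genes was 0.25.

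Of 12 genes of heme synthesis and breakdown 5 rose and 3 fell, beside 23.7% and 20.8% of all genes, with a median log2 fold change of 0.33. BLVRA, biliverdin reductase, had signals of 7808, 8052 and 8085 in D20, against 2649, 2642 and 2856 in pU6-2, and rose by 1.55 (SE 0.08, limma adjusted p = 1.5e-08). It was read from an _x_at probe set, and with _x_at and _s_at probe sets taken last it was not tested. SLC48A1, a heme transporter, rose by 1.27, and FECH, the ferrochelatase, by 0.62. FECH did not pass with the mean of its probe sets (0.28) or with _x_at and _s_at probe sets last (0.21). The synthesis enzymes UROS (-1.19) and UROD (-0.93) fell, but UROS was at -0.57 and -0.04 in these settings and did not pass in the second.

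Regulators of P450 genes moved in both directions, with 8 of 22 tested genes higher and 7 lower, beside 23.7% and 20.8% of all genes, and a median log2 fold change of 0.28. AHR had signals of 6691, 8259 and 9064 in D20, against 3689, 3531 and 3694 in pU6-2, and rose by 1.12 (SE 0.11, limma adjusted p = 3.2e-06). AHRR, the repressor of AHR and itself one of its targets, had signals of 621, 425 and 507 in D20, against 62, 69.1 and 127 in pU6-2, and rose by 2.42 (SE 0.28, limma adjusted p = 1.8e-05). Only 1 of the 3 pU6-2 arrays was above background for AHRR, so the size of that difference is uncertain. The other large changes were in NR5A2 (2.12), a nuclear receptor of bile acid genes, RARB (1.62), a retinoic acid receptor, and NR1H3 (-2.21), the oxysterol receptor LXR alpha.

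NR1H3 had signals of 455, 284 and 274 in D20, against 1448, 1818 and 1479 in pU6-2, so the clones lay well apart. VDR, the vitamin D receptor, rose by 1.14 but not without D20 array A (1.28), B (1.26) or C (0.87), nor with quantile normalization, median centring, no filter or no variance trend. It was at 2.52 and 2.94 without pU6-2 array A and C, and at 2.98 by the mean of untransformed signals. NR1I3, the xenobiotic receptor CAR, was above background on no array, with signals of 26.6, 21.2 and 12 in D20, against 34.5, 55.2 and 36.2 in pU6-2. NR1I2 and HNF4A were not analysed here.

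**Figure D5:**
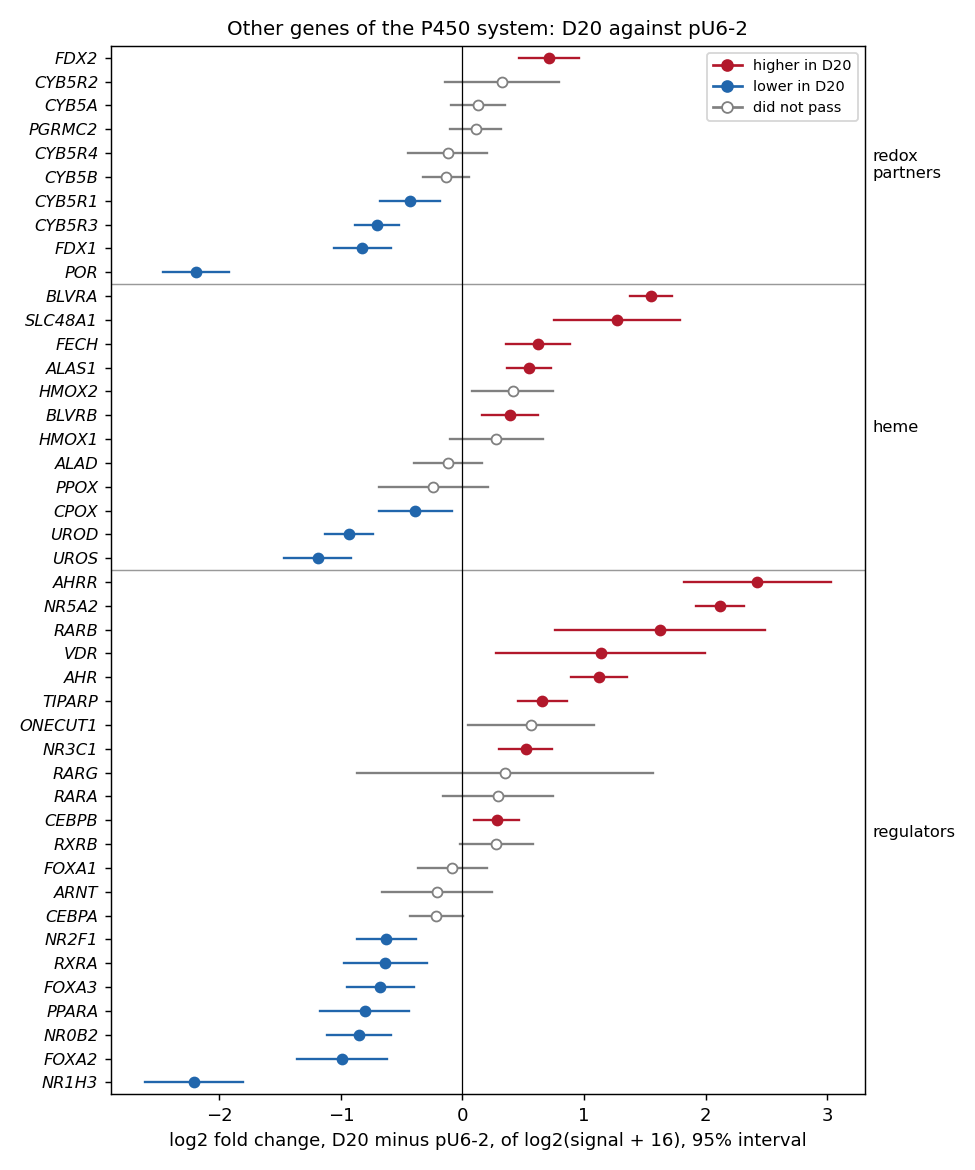
Log2 fold change, D20 minus pU6-2 (horizontal axis), with limma's 95% interval for the tested redox partners, heme genes and regulators of P450 genes (vertical axis); filled points passed the test. POR at -2.19 and NR1H3 at -2.21 are the lowest points; AHRR at 2.42 was above background on only 1 pU6-2 array.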

How the data were processed

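Total RNA was measured on 6 one-colour arrays (HG-U133 Plus 2.0), grouped by source label into 3 of clone D20 and 3 of clone pU6-2. The deposited values are intensity values on a linear scale, 1 per probe set and array, made with MAS5 per the submitters' processing notes; its version and scaling target are unknown here. Depth does not apply to arrays, and the number of arrays limits the precision.

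Gene symbols came from the platform annotation at GEO and were updated by Entrez identifier through RefSeq (GRCh38.p14). Of 54675 probe sets 41091 had 1 gene symbol, 1801 several and 11777 none, and a probe set with several was named for none. P450 genes had 92 probe sets, and 21 genes had more than 1. Promoter windows are from RefSeq.

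Signals were transformed to log2(signal + 16) without further normalization. Left out were 62 control probe sets and, of the rest, the 40% whose mean fell below a signal of 43.2. limma 3.58.1 in R 4.3.3 (lmFit, eBayes with a variance trend; two-sided) compared D20 with pU6-2 over 32768 probe sets, with Benjamini-Hochberg adjustment. The fit was tested on simulated data. Named are all called P450 genes, those above background in both clones and, of each list of partner genes, up to 5 called genes with the largest change, with POR, AHR and NR1I3; CYP7A1, CYP26A1, CYP2B6 and the other genes outside this rule were chosen after their values were seen. The genes and lists were chosen with earlier results of these data known. A fold bound takes each array of the dim clone at its background limit. The alternatives tried were other pseudocounts, filters, normalizations, probe set choices, background limits and substrate classes, the letters as a replicate block, and leaving out each array; choosing the probe set by untransformed signals was added after seeing the data. The deviations of same-lettered arrays from the clone means showed little correlation (r = -0.02, 0.05 and 0.007), which cannot exclude that the letters pair the arrays.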

Additional observations from a re-analysis of the deposited data

How the results depend on the processing

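Of the 13 P450 genes called, 7 kept their direction and their call under all 17 settings tried (CYP1B1, CYP2J2, CYP2U1, CYP11A1, CYP26B1, CYP27C1 and CYP39A1), and none changed direction. CYP4F3 kept its call in the 13 settings that tested it. With the replicate block 6 P450 genes were higher and 8 lower, against 6 and 7 without it. Of all genes tested 47.0% were then called, against 44.5%. The added call was CYP7B1 (-1.10, limma adjusted p = 0.011), and whether the letters pair the arrays is not known. Without the variance trend 4 P450 genes were lower, and 34.8% of all genes tested were called. Leaving out 1 array gave 4 to 7 genes higher and 4 to 6 lower, of 24 or 25 tested. The 4 lower were without pU6-2 array A or C. With 1 array left out 37.2% to 42.3% of all genes tested were called. The same fits left medians of 0.26 to 0.74 for drug, -0.24 to 0.019 for sterol and -0.06 to 0.14 for fatty acid genes. The sterol median was -0.44 with a pseudocount of 1, -0.20 with median centring and 0.038 with spike-in scaling, and the fatty acid median was -0.02 with quantile normalization. Redox partners higher in D20 numbered 3 with spike-in scaling and 2 with the mean of probe sets, against 1. Of all genes tested 45.2% and 40.2% were called in these settings, and of those called 72.7% and 55.5% were higher. At the 75th percentile of olfactory receptor probe sets 20 P450 genes were above background in D20, and with the filter signal as limit 22 in D20 and 26 in at least 1 clone, against 13 and 17. The 99th percentile left 9 in D20, 10 in pU6-2 and 13 in at least 1 clone. With 1 array left out the counts were 13 to 17 in D20, 13 to 15 in pU6-2 and 17 to 19 in at least 1 clone. Low signals limit most of these values: with pseudocounts of 1 and 64 CYP1B1 was at 2.31 and 1.47 and CYP2A7 at 2.23 and 0.84. The causes of these shifts were not tested.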
